A study of Mus musculus with 384 samples.

Results

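The cells described here are the EpiSCs (post-implantation epiblast stem cells) of line AF32 in which genes of chromosome 8 were expressed above the level of the other chromosomes. They numbered 41 of the 80 AF32 cells with at least 3000000 counts, or 51.2% (exact Clopper-Pearson 95% interval 39.8–62.6%, counting error only). They were chosen by their chromosome 8 expression itself. For each cell the counts per 1000000 (CPM) of a gene were divided by the gene's mean over the kept cells of all 4 lines, capped at 3 and averaged over the genes of a chromosome. That average was set relative to the cell's own median over the 19 autosomes. Cells with a chromosome 8 ratio above 1.2 were taken, and they are called raised cells in the following. The remaining 39 AF32 cells served for comparison. Since the ratio itself chose the cells, the values of chromosome 8 genes are a description and carry no test.

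The series holds single-cell RNA sequencing, by a full-length method without molecular identifiers, of 384 mouse cells from 4 lines, 96 of each. AF32 was a primed line kept on fibronectin in AF, a serum-free medium with activin A and Fgf2. AFX6, also primed, received the tankyrase inhibitor XAV939 in addition (AFX), and the formative stem (FS) cell lines 5ar1 and 5ar2 grew in AloXR, with low activin, XAV939 and BMS493, an inverse agonist of retinoic acid receptors. AF32 is a single line and its cells share that origin, so that cells are not replicates and no p-value is given. Which of the study's mouse strains AF32 came from, its passage number and the number of cultures sampled are not given in the sources used here, and all results apply to this batch of cells.

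Mouse pluripotent cells in long culture are known to gain whole chromosomes, and chromosome 8 is among those most often gained. An extra copy raises the transcripts of most genes on that chromosome roughly with the number of copies, while proteins that work in complexes can be left with unequal partners. Chromosome 8 carries genes of DNA replication such as Mcm5, Gins4 and Orc6, the receptor gene Fgfr1 and the adhesion gene Cdh1. DNA copy number was not measured in these cells, and no value below is a count of chromosomes.

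The chromosome 8 ratio of the raised cells had a lowest value of 1.202, a median of 1.528 and a highest of 1.695. In the other AF32 cells it ran from 0.818 over a median of 0.912 to 1.191. No kept cell of 5ar1 (0 of 90), 5ar2 (0 of 90) or AFX6 (0 of 66) exceeded 1.2, and 0 of 246 allows a share of up to 1.2195%. The AF32 values were not spread evenly. A total of 37 cells lay at or below 0.994, a gap reached to 1.1897, and a second gap ran from 1.339 to 1.438 with 27 cells above it. The limit of 1.2 passed through the middle range: just outside it lay cells at 1.1897 and 1.191, and just inside lay cells at 1.202, 1.223 and 1.224. Within 0.05 of the limit there were 6 cells, 4 of them inside. The raised cells were therefore also described as an upper group of 27 cells with a ratio above 1.4 and a lower group of 14 cells up to 1.4, a division made after the values were seen.

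**Figure D1:**
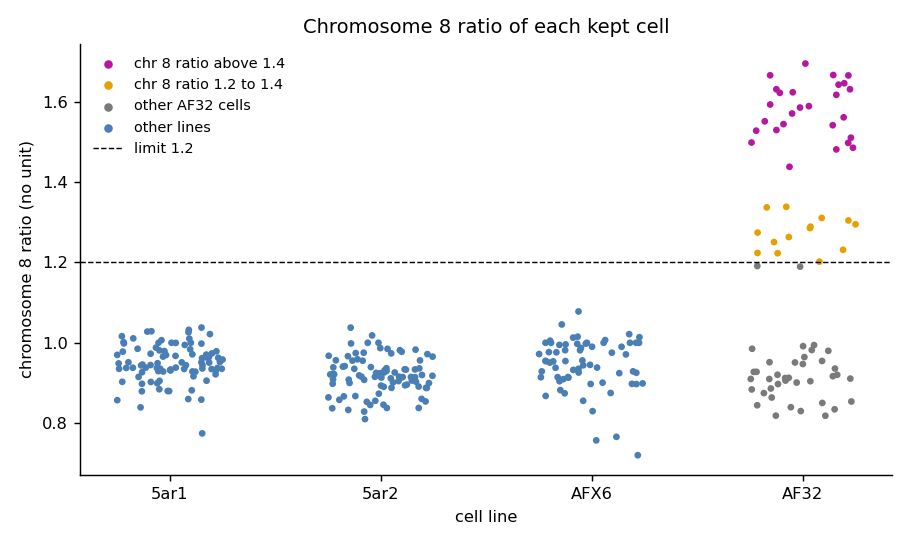
Chromosome 8 ratio (vertical axis, no unit) of every kept cell in the 4 lines; each point is 1 cell and the dashed line is the limit of 1.2. Points of AF32 fall into 3 ranges, the upper one starting at 1.438, while the 246 cells of the other lines all lie below the limit.

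Depth was similar in both sets of AF32 cells. The counts of the raised cells had a median of 4404252 per cell (3111312 to 5824816), against 4398940 (3022696 to 6283874). At a common depth of 3000000 counts they had a median of 9724 detected genes (8421 to 11485), against 9680 (8614 to 11630). The 50 most abundant genes held a median of 16.7% of the counts in raised cells and 19.2% in the others. All 80 count profiles were distinct from each other.

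The labelled identity was checked with 8 markers of primed cells, Pou5f1, Sox2, Nanog, Otx2, Fgf5, Dnmt3b, Utf1 and Epcam. Their summed level was 13.8, 2239 and 5006 CPM (lowest, median, highest) in raised cells and 801, 2806 and 5510 CPM in the others. In both groups 7 of the 8 markers had a mean of at least 20 CPM, and Sox2 was low, with 11.4 and 14.2 CPM. Most raised cells lay in the range of the others, but 4, 3 of the upper group and 1 of the lower, lay below every other AF32 cell, at 13.8 to 745 CPM. All 4 had a chromosome 2 ratio above 1.2. One of them held 2369 CPM of T, a primitive streak gene, and another 1903 CPM of Tubb3, a neuronal tubulin gene on chromosome 8. Without these 4 cells, an alternative chosen after the values were seen, the median fold of chromosome 8 genes described below was 1.711-fold in place of 1.712-fold. Genes of other chromosomes at least 2-fold higher then numbered 177 in place of 197, and those at least 2-fold lower 101 in place of 93.

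Markers of other cell types were near 0 in both groups. Over 5 primitive streak genes the median sum was 0.255 CPM in raised cells and 0.251 CPM in the others. Trophoblast, extraembryonic endoderm and fibroblast markers each had a median sum of 0 CPM in both, and Elf5, Gata4, Sox7 and Col3a1 were at 0 in all 80 cells. The highest sums of these 3 lists in a raised cell were 56.3, 88.6 and 113 CPM, and in the others 71.0, 156 and 56.7 CPM. The sum of 4 neural markers stood apart, with a median of 96.8 CPM in the upper group, 0.374 CPM in the lower group and 2.923 CPM in the other cells. Of these, Tubb3 and Sox1 lie on chromosome 8, while Pax6 and Sox3 had summed levels below 3 CPM in every group. The part of these markers in the results below was not tested.

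Chromosome 8 was not raised alone. In the upper group the chromosome 2 ratio was 1.192, 1.332 and 1.401 (lowest, median, highest) and exceeded 1.2 in 26 of 27 cells. The chromosome 19 ratio was 1.096, 1.223 and 1.347 there and exceeded 1.2 in 18 cells. In the other AF32 cells 2 of 39 exceeded 1.2 for chromosome 2 and 0 for chromosome 19, with medians of 0.9504 and 0.882. Chromosome 11 exceeded 1.2 in all 27 cells of the upper group, but also in 27 of the 39 other cells, with medians of 1.281 and 1.278.

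The lower group showed another combination. Its chromosome 10 ratio had a median of 1.364 (0.928 to 1.4802) and exceeded 1.2 in 10 of 14 cells, against 0 of 27 cells in the upper group and 8 of 39 among the others. Chromosome 2 exceeded 1.2 in 1 of the 14 cells, chromosome 19 in 0 and chromosome 11 in 12. The single cell with a raised chromosome 2 was the one with the lowest sum of primed markers. No AF32 cell, of 80, had both chromosome 2 and chromosome 10 above the limit. Only 1 raised cell had none of chromosomes 2, 10, 11 and 19 above 1.2, and 3 had chromosome 11 as the only one of these. All ratios share the median of the autosomes of their cell, so they are not independent of each other.

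**Figure D2:**
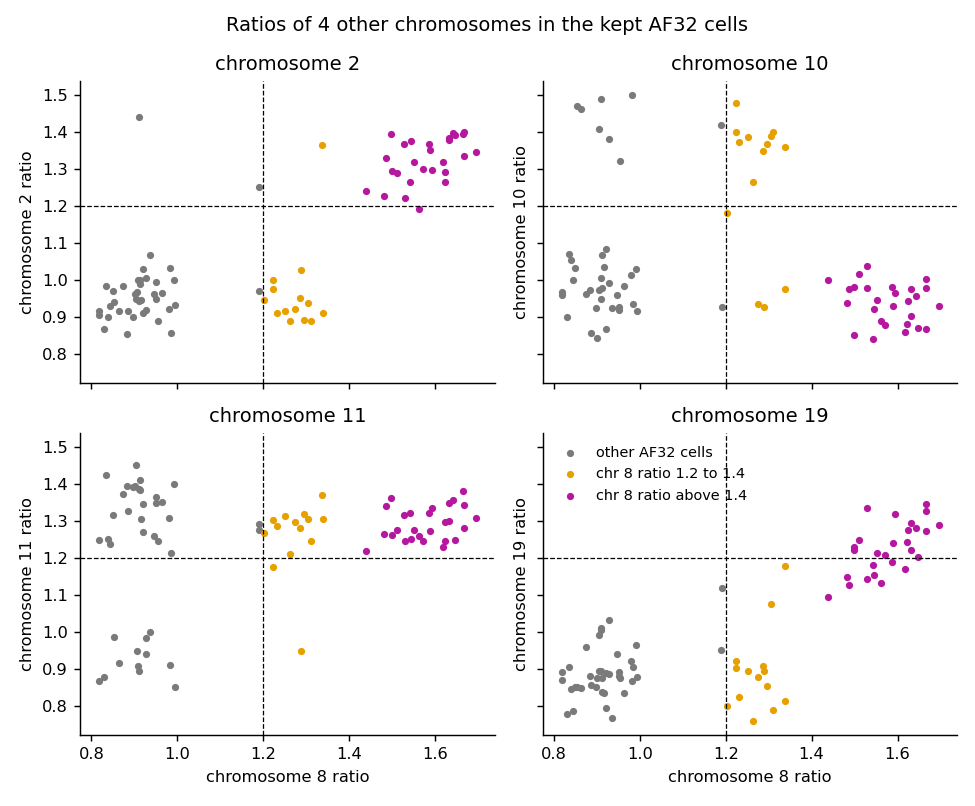
Ratio of chromosomes 2, 10, 11 and 19 (vertical axes) against the chromosome 8 ratio (horizontal axes, no unit) in the 80 kept AF32 cells; each point is 1 cell, coloured by group, and dashed lines mark 1.2. Cells above 1.4 for chromosome 8 lie high for chromosomes 2, 11 and 19 and low for chromosome 10, and most cells of the lower group lie high for chromosome 10.

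Y-linked transcripts varied along with these combinations. The summed level of Ddx3y, Eif2s3y, Kdm5d and Uty was 43.3, 350 and 787 CPM (lowest, median, highest) in the upper group and 47.7, 176 and 558 CPM in the other AF32 cells. The ranges overlapped. In the lower group the sum ran from 0.261 over a median of 228.5 to 587 CPM, and in 4 cells of this group, but in none of the other 76 kept AF32 cells, it was under 20 CPM, at 0.261 to 1.588 CPM. These 4 cells all had a raised chromosome 10, with ratios of 1.3496 to 1.4802, and kept Pou5f1, at 493 to 695 CPM.

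The dose of chromosome 8 genes was taken as the ratio of summed CPM between raised and other AF32 cells. Over the 417 genes of the rule the median was 1.712-fold, with quartiles of 1.449 and 2.01. In this set 371 genes were at least 25% higher and 8 at least 20% lower in level, limits that are mirror images as folds and are meant below where genes of a list are called higher or lower. Of the 7087 protein-coding genes that averaged 20 CPM or more in AF32, 28.4% were higher by this measure and 16.9% lower. In the upper group alone the shares were 32% and 22.4%, and in the lower group 24.6% and 23.8%. Chromosome 8 genes entered the choice of the cells, so nothing is read from their share. The median over 6411 genes of the other autosomes was 1.01-fold, and over the 4554 genes of autosomes other than 2, 8, 10, 11 and 19 it was 0.966-fold. Against the same 39 cells the median dose of the rule genes was 1.847-fold in the upper and 1.409-fold in the lower group.

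Genes of chromosome 8 that the rule did not use were read as well. They were 178 protein-coding genes with a mean of 2 to 20 CPM and 66 genes of other biotypes with at least 2 CPM. These means were taken over all kept AF32 cells, so a gene could pass the floor through the raised cells alone. The folds of this set are therefore a description as well. Their median over all raised cells was 1.712-fold, with quartiles of 1.06 and 3.04. It was 1.873-fold in the upper and 1.2204-fold in the lower group, but 1-fold over all raised cells when medians of CPM plus 1 were compared. The protein-coding part had a median of 1.869-fold (2.122-fold in the upper and 1.3703-fold in the lower group) and the other biotypes 1.174-fold (1.335- and 1.088-fold), where genes of the same kinds on autosomes not raised had 1.02- and 0.937-fold. Summed per cell and set to the median of the other AF32 cells, the 244 genes lay at 1.05, 1.592 and 2.443 in the upper group, at 1.01, 1.165 and 2.2095 in the lower group, and at 0.707, 1.00 and 1.387 in the others. The upper group overlapped the others in 7 cells, 20 of its 27 lying above all 39.

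A further description chose cells by every second chromosome 8 gene and read the genes in between. With the odd genes, 39 cells passed 1.2, all of them among the 41, and the 208 even genes had a median of 1.651-fold. With the even genes, 40 cells passed, 38 of them among the 41, and the 209 odd genes had 1.625-fold. Above 1.4 the medians read were 1.766- and 1.744-fold, and between 1.2 and 1.4 they were 1.371- and 1.329-fold.

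The dose was raised along the whole chromosome. These are genes of the rule, so the values are a description. Cut into 10 runs of 41 or 42 genes in order of position, from chr8:3393006-22220843 to chr8:121949750-129234406 (GRCm38, GENCODE M21), the medians ran from 1.635- to 1.833-fold. In the upper group they ran from 1.732- to 2.01-fold and in the lower group from 1.333- to 1.544-fold. It also varied little with expression level: split by mean CPM into 3 sets of 139, the genes had medians of 1.7501-, 1.728- and 1.689-fold. Reads of chromosome 8 made up 5.85, 7.97 and 8.56% of a cell's counts (lowest, median, highest) in raised cells and 3.96, 4.42 and 6.315% in the others.

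**Figure D3:**
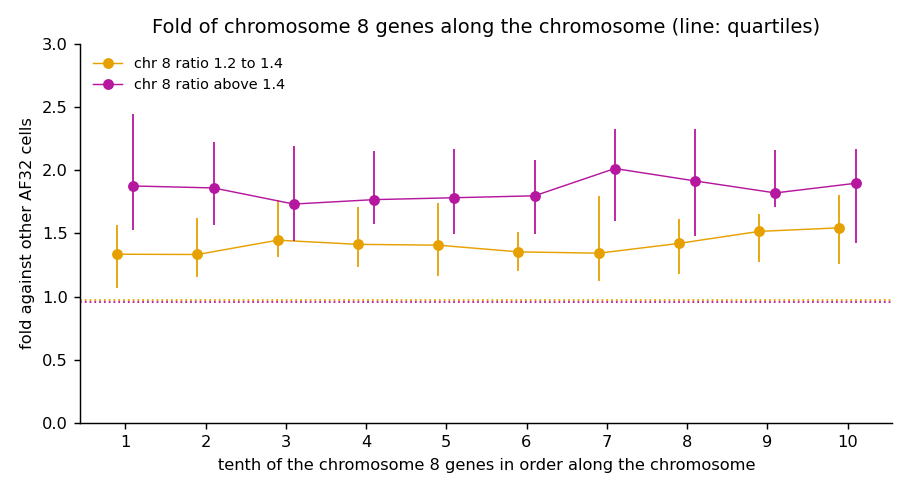
Median fold of the chromosome 8 genes of the rule against the other AF32 cells (vertical axis), in 10 runs of genes ordered along the chromosome, for the cells above 1.4 and the cells of 1.2 to 1.4; lines are quartiles over genes and dotted lines the median of autosomes not raised. The medians stay between 1.732 and 2.01 in the upper and between 1.333 and 1.544 in the lower group along the whole length.

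Of the other autosomes, chromosomes 2 and 19 had the next highest medians over their genes. In the upper group these were 1.408- and 1.414-fold, 1.07-fold for chromosome 11 and 0.851-fold for chromosome 10. In the lower group chromosome 10 reached 1.158-fold and chromosomes 2 and 19 were at 0.971- and 0.962-fold. The 4 Y-linked genes had a median of 2.365-fold in the upper and 1.376-fold in the lower group. Both comparisons use the same 39 cells as their base.

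**Figure D4:**
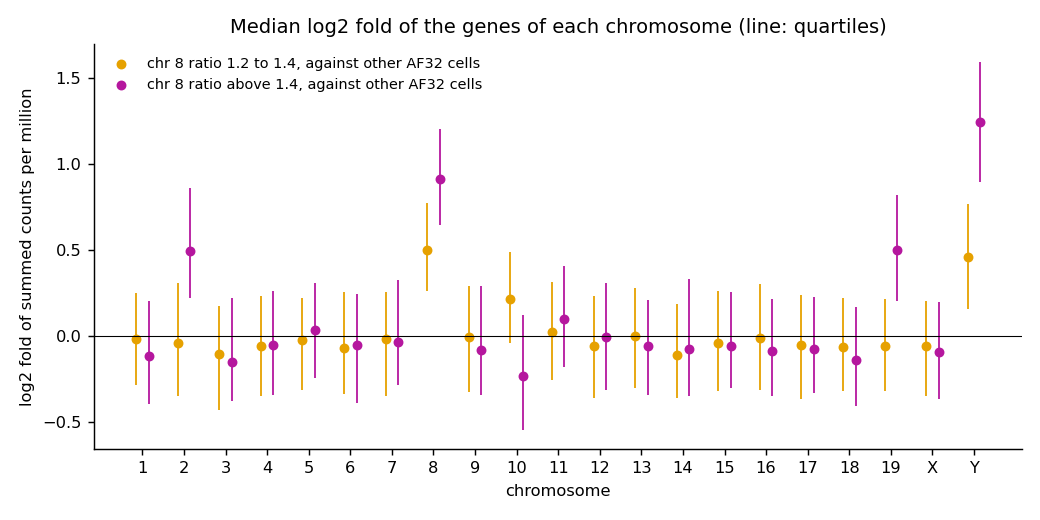
Median log2 fold of the genes of each chromosome against the other AF32 cells (vertical axis), for cells of 1.2 to 1.4 and cells above 1.4; points are medians and lines quartiles over genes. Chromosomes 2, 8 and 19 and the Y chromosome lie highest in the cells above 1.4, and chromosomes 8 and 10 and the Y chromosome in the cells of 1.2 to 1.4.

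Most chromosome 8 genes of known role were higher in raised cells. Of 56 genes listed by role, 43 had at least 20 CPM, 40 of them were higher and 1 lower, with a median of 1.7203-fold. Of all 453 chromosome 8 genes compared, 408 (90.1%) were higher and 5 lower, with a median of 1.724-fold, so the listed genes were near that share. Chromosome 8 genes entered the choice of the cells, and nothing is read from the count. The list was drawn up by function with the raised chromosome already known.

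Replication genes of chromosome 8 were higher in summed level. They lie on the chromosome that chose the cells, so their values are a description. Mcm5 (ENSMUSG00000005410, chr8:75109569-75128439), a subunit of the replicative MCM helicase, was at 1.02, 667 and 1621 CPM (lowest, median, highest) in raised cells and at 1.00, 359 and 1127 CPM in the others. The ranges overlapped, and the summed level was 1.7203-fold higher (exact conditional 95% interval 1.704–1.737, counting error only). Orc6 (chr8:85299632-85308278), a subunit of the origin recognition complex, was 2.05-fold higher (2.01–2.09), with medians of 222 and 93.3 CPM per cell. Cdt1, which loads the helicase, was 1.794-fold higher, and Gins2, Gins3 and Gins4, members of the GINS complex that joins the active helicase, were 1.544-, 1.9501- and 1.746-fold higher.

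Partners of these proteins that are encoded on other chromosomes differed between the groups of raised cells. The 5 other MCM subunits had a median of 0.825-fold, with Mcm2 at 0.825-, Mcm6 at 0.825- and Mcm4 at 0.780-fold. Their median was 0.779-fold in the upper group with 3 lower, and 1.05-fold in the lower group with 0 lower, Mcm6 being at 497 against 460 CPM in the others. Gins1, on chromosome 2, was 0.727-fold, although chromosome 2 as a whole was higher, and at 0.600- and 0.972-fold in the upper and lower group. The 5 other ORC subunits had a median of 1.03-fold, from Orc1 at 0.758-fold to Orc4 at 1.102-fold. Larger assemblies were described in the same way, where 28.4% of all genes tested were higher and 16.9% lower. Among 32 proteasome genes only Psmd7, on chromosome 8, was higher (1.864-fold), 3 were lower, and the 31 on other chromosomes had a median of 0.957-fold. Of 26 chaperone genes 3 were higher, all of them on chromosome 8: Calr at 1.312-, Dnaja2 at 1.848- and Dnajb1 at 1.942-fold. Of 75 ribosomal protein genes 3 were higher, among them Rpl13 (1.772-fold) on chromosome 8 and Rpl7a (1.351-fold) on chromosome 2, 2 were lower, and the list had a median of 0.939-fold.

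Rpl13, a protein of the large ribosomal subunit, is an abundant example. It was at 2076, 4196 and 9540 CPM in raised cells and at 1538, 2272 and 3661 CPM in the others. Cox4i1, a subunit of cytochrome c oxidase, was at 899, 1373 and 2510 CPM in raised cells against 511, 858 and 1235 CPM. The ranges of both genes overlapped between the groups.

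Signalling and chromatin genes of chromosome 8 were mostly higher as well. Fgfr1, a receptor of the Fgf2 in the medium, was 1.791-fold higher, with medians of 288 and 140 CPM per cell. Insr and Irs2, the insulin receptor and its substrate, were 2.03- and 1.947-fold higher. Chd9, a chromatin remodeller, was at 2.104-fold, Brd7, a bromodomain protein of SWI/SNF complexes, at 1.871-fold, and Ctcf, the insulator protein, at 1.463-fold. Mcph1, a regulator of chromosome condensation, was at 3.39-fold.

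A few chromosome 8 genes departed from the dose. Dusp4 (chr8:34807297-34819894), a phosphatase that acts on ERK, was 9.85-fold higher (9.08–10.7), at 0, 9.60 and 535 CPM in raised cells and 0, 0 and 33.9 CPM in the others. A single cell held 28.9% of its AF32 counts. Gas8, Zfhx3, Xkr5 and Tubb3 were 5.56-, 5.34-, 5.11- and 4.72-fold higher, the last with 39.9% of its counts in 1 cell. In the other direction, Got1l1 was 0.186-fold and Dus2 0.572-fold, Gm10282 was 0.745-fold, and Junb, an immediate early gene, was 0.719-fold in summed level but 9.90-fold by medians of CPM plus 1. Acta1 was 0.0107-fold, but 98.4% of its counts came from 1 cell outside the group. Got2 and Hmox1 were at 1.121- and 1.02-fold.

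Cdh1 (chr8:106603351-106670246), which encodes E-cadherin, differed between the groups of raised cells. Its summed level was 1.466 CPM in the upper group, 76.9 CPM in the lower group and 16.2 CPM in the others, and 29.6% of its counts came from 1 cell. Cdh3, which encodes P-cadherin and lies on the same chromosome, was at 81.0, 190.3 and 67.8 CPM. Sox1, a neural factor of chromosome 8, was at 21.1, 0 and 2.567 CPM in the same order.

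Away from chromosome 8, 6634 genes were compared. At least 2-fold higher were 197 of them and at least 2-fold lower 93, which is 2.97% and 1.4% of them. In the upper group taken alone the shares were 5.14% higher and 3.35% lower, and in the lower group 162 were higher and 320 lower, the latter being 4.82%. With chromosome 8 included, the lower group had 3.12% of the 7087 genes at least 2-fold higher and 4.61% lower. Off chromosome 8, higher genes thus outnumbered lower ones in the upper group, and lower ones outnumbered higher ones in the lower group. The lower group holds only 14 cells. Where 4 raised cells were set against 29 others, lower genes also outnumbered higher ones, at 1118 and 556. The part of group size in these counts was not tested. In the upper group chromosome 2 held 109 higher and 5 lower genes, and chromosome 19 held 38 and 2. Outside chromosomes 2, 8, 10, 11, 19 and Y the order was reversed there, with 156 higher and 181 lower genes. In the lower group these numbers were 98 and 230. Of the 197, chromosome 2 held 55, chromosome 11 held 18, chromosome 19 held 16, chromosome 10 held 7 and the Y chromosome 2, and 99 lay on chromosomes outside this set. Of the 93 lower genes, 77 lay on such chromosomes.

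Folds off chromosome 8 were ranked among genes with a count in at least 50% of the cells of the higher group, which leaves out T on chromosome 17, with nearly all of its counts in 1 cell. The 10 largest in this set were in genes of low level. Ptprt (chr2:161521990-162661147), a receptor phosphatase, was 15.8-fold higher, at 35.7 and 2.261 CPM, with 37.8% of its counts in 1 cell. Cercam, Prr5l, Btbd3 and 4930402H24Rik, all on chromosome 2, were 5.36-, 4.41-, 4.21- and 6.3702-fold higher. Rps6ka4, a kinase downstream of ERK and p38, and Abhd17b, both on chromosome 19, were at 5.52- and 3.97-fold, 6330403K07Rik and Pmp22 on chromosome 11 at 4.78- and 3.88-fold, and Uty on the Y chromosome at 4.37-fold. These 10 lay on chromosomes 2, 11, 19 or Y.

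Genes of chromosomes outside this set were named after their values were seen. Tet3, a 5-methylcytosine dioxygenase, was at 44.9 against 15.1 CPM (2.97-fold), Akt1 at 43.3 against 14.5 CPM (2.98-fold) and Bcor, a corepressor, at 38.8 against 13.2 CPM (2.926-fold). Tgfb2 was 3.61-fold higher, Slc48a1 3.34-fold, Apobec1 3.33-fold and Mroh1 3.39-fold. Ckb, a creatine kinase, and Emp3 differed in direction between the groups of raised cells: Ckb was at 1402 CPM in the upper, 103 CPM in the lower group and 265 CPM in the others, with 36.4% of its counts in 1 cell, and Emp3 was at 88.9, 17.9 and 20.9 CPM.

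The lower genes lay on many chromosomes. Ndrg1 (chr15:66929318-66969640), a gene known to respond to low oxygen, was at 0, 0.411 and 489 CPM in raised cells and 0, 133 and 1064 CPM in the others, 0.229-fold (0.224–0.235). Ndufa4l2, known for the same response, was 0.252-fold. Klhl21, which directs a ubiquitin ligase in mitosis, was 0.217-fold, F11r, a tight junction protein, 0.246-fold, and Cth, of cysteine synthesis, 0.294-fold. Eras, a Ras-like gene of embryonic stem cells, was 0.298-fold, Heatr1, of ribosome production, 0.278-fold, Mogat2 0.262-fold and Akr1b10 0.313-fold. Gadd45b was 0.271-fold with 38.6% of its counts in 1 cell. Irak1 and Ttll1 were 0.313- and 0.319-fold.

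Genes of glycolysis were lower in the raised cells as a list. Of 17 genes, none on chromosome 8, 12 were lower and 3 higher, where 16.9% and 28.4% of all genes tested were. Their median was 0.699-fold, against 1.03-fold over all genes tested. For the 13 of them on chromosomes not raised it was 0.695-fold, against 0.966-fold over all tested genes of autosomes not raised. Slc2a1 (chr4:119108711-119137983), the main glucose transporter, was at 5.15, 820 and 2885 CPM in raised cells and at 512, 1770 and 6439 CPM in the others, 0.492-fold (0.489–0.495). Ldha (chr7:46841475-46855627), which turns pyruvate into lactate, was at 1402, 4017 and 7991 CPM against 3299, 7378 and 12279.7 CPM, 0.587-fold. Hk2, a hexokinase, was 0.549-fold. Pfkp, a phosphofructokinase, went the other way at 1.777-fold, but was at 0.619-fold by medians of CPM plus 1.

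The summed level of the 13 glycolysis genes on chromosomes not raised was 17690, 33533 and 58919 CPM per cell in raised cells and 37479, 51161 and 73898 CPM in the others. The ranges overlapped, but 26 of the 41 raised cells lay below all 39 other cells, and 2 lay above their median. The medians were 31155 CPM in the upper and 39828 CPM in the lower group. These groups also differed in the ratios of other chromosomes, as described above. The part of chromosome 8 in this difference was not tested. In the other lines, which grew in other media, the medians were 43455 CPM in 5ar1, 36724 CPM in 5ar2 and 52124 CPM in AFX6. Without the 4 cells with few primed markers the number of lower genes was again 12.

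**Figure D5:**
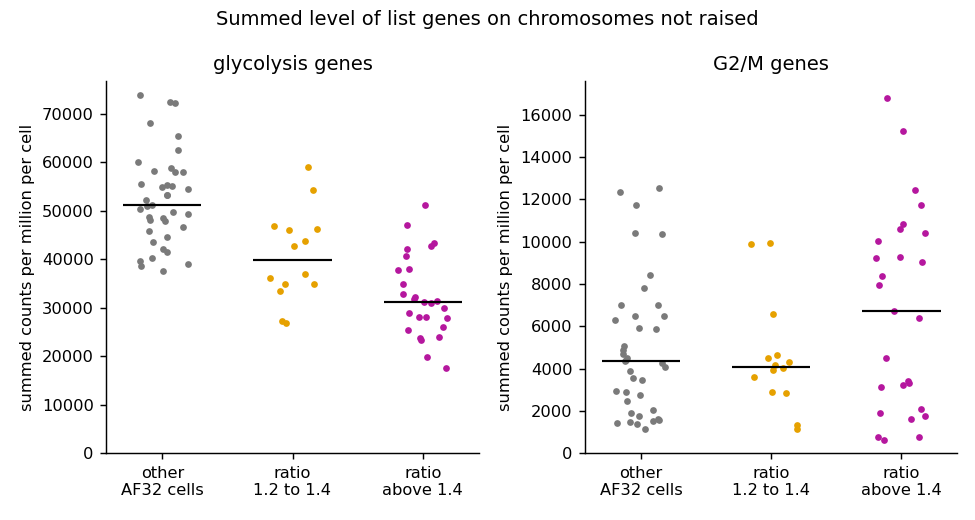
Summed CPM per cell (vertical axes) of the 13 glycolysis and 32 G2/M genes on chromosomes other than 2, 8, 10, 11, 19 and Y in the 3 groups of AF32 cells; each point is 1 cell and the bar is the median. Glycolysis sums have a median of 51161 in the other cells and 31155 in the cells above 1.4, while G2/M sums overlap widely.

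Of 74 nuclear genes of the respiratory chain, 16 were lower, where 16.9% of all genes tested were. Another 6 were higher, and the median was 0.882-fold. Of the 6 higher genes, Cox4i1, Ndufa13 and Ndufb7 lie on chromosome 8. Ndufv1, on chromosome 19, was 1.722-fold and Atp5s, on chromosome 12, 1.898-fold. In the upper group 30 of the 74 genes were lower, where 22.4% of all genes were, and in the lower group 6, where 23.8% were. Their sums per cell had medians of 18875 CPM in the upper group, 20852 CPM in the lower and 20054 CPM in the others. The ranges overlapped. Of the 53 genes on chromosomes not raised, 15 were lower and 1 higher. Their median was 0.844-fold, against 0.966-fold over all tested genes of autosomes not raised. Here the sums had medians of 9331 CPM in the upper group, 10426 CPM in the lower and 11226 CPM in the others. These ranges overlapped too, but only 5 of the 41 raised cells lay above the median of the others. They were 1 of 27 in the upper and 4 of 14 in the lower group.

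Genes of G2 and mitosis were higher in summed level, mainly in the upper group. Of 52 genes, 36 were higher and 2 lower, with a median of 1.461-fold. Over all genes tested 28.4% were higher and 16.9% lower. Outside chromosomes 2, 8, 10, 11 and 19 the list had 18 of 32 higher and 2 lower, with a median of 1.344-fold. Over all tested genes of autosomes not raised the shares were 19.2% higher and 20.6% lower. Hjurp (chr1:88262471-88277633), a chaperone of the centromeric histone, was 2.522-fold higher, at medians of 217 and 73.0 CPM per cell. Aurka, a mitotic kinase on chromosome 2, was 2.425-fold, Ckap2l on chromosome 2 2.663-fold and Ckap2 on chromosome 8 2.62996-fold. In the lower group 13 of the 52 genes were higher and 12 lower, with a median of 1.01-fold. This was near the shares over all genes in that group, 24.6% and 23.8%.

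Summed per cell, the 32 genes were at 653, 4504 and 16779 CPM in raised cells and at 1151, 4368 and 12547 CPM in the others, and 21 of the 41 raised cells lay above the median of the others. The upper group had a median of 6744 CPM, with 16 of 27 cells above that of the others, and the lower group 4089 CPM, with 5 of 14. The groups thus overlapped over nearly their whole range. Without the 4 cells with few primed markers, 23 of the 32 genes were higher. Of the 37 genes of G1 and S phase that were compared, 11 were higher and 6 lower, with a median of 1.05-fold. These counts were near the shares over all genes tested, 28.4% higher and 16.9% lower. Usp1 was 1.932-fold and Blm 1.624-fold, while Ung, which removes uracil from DNA, was 0.563-fold.

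Of 14 targets of p53, a factor that answers DNA damage and other stress, 0 were higher and 7 lower, with a median of 0.819-fold. Over all genes tested 28.4% were higher and 16.9% lower. Mdm2 (63.7 against 53.2 CPM), Trp53inp1 (23.8 against 19.6 CPM) and Ei24 (72.9 against 67.2 CPM) lay above the others by less than the limit. Taken apart, the upper group had 1 higher and 6 lower targets, and the lower group 1 higher and 8 lower. Over all genes the shares were 32% and 22.4% in the upper and 24.6% and 23.8% in the lower group. Without the 4 cells with few primed markers 6 targets were lower. Summed per cell, the 14 targets were at 346, 845 and 1703 CPM in raised cells and 299, 1032 and 3078 CPM in the others. The ranges overlapped, and 12 of the 41 raised cells lay above the median of the others. For the 10 targets on chromosomes not raised the medians were 541 and 616 CPM, and 17 of the 41 did so. Btg2 and Ddit4 were 0.447- and 0.446-fold, Bbc3 0.604-fold and Phlda3 0.617-fold. Ddit4 was at 0, 55.9 and 400 CPM in raised cells and at 16.6, 155 and 406 CPM in the others. Of 19 genes of the ATF4 response to amino acid shortage, which shares Ddit4 and Sesn2 with the p53 list, 3 were higher and 7 lower (median 0.828-fold). Aars and Slc7a5 on chromosome 8 and Chac1 on chromosome 2 were the higher ones, at 1.8902-, 1.394- and 2.293-fold. Atf3 was 0.340-fold, with 39.9% of its counts in 1 cell. By medians of CPM plus 1 the direction turned for Bbc3 (1.108-fold), Atf3 (1.02-fold) and Chac1 (0.988-fold). Of 11 apoptosis regulators, 4 were higher, among them Bcl2l1 on chromosome 2 (1.521-fold), and 3 were lower. Bcl2l1 was at 55.1 CPM in the upper group, 9.78 CPM in the lower group and 26.0 CPM in the others.

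Of 18 genes of sterol synthesis, 7 were lower and 2 higher, with a median of 0.873-fold. Over all genes tested 16.9% were lower and 28.4% higher. The 2 higher genes were Msmo1 and Mvd, both on chromosome 8 and at 1.441- and 1.439-fold. Mvk and Lss, enzymes of the same pathway on other chromosomes, were 0.722- and 0.746-fold. The interferon response was near the floor: 2 of 14 genes could be compared, Bst2 at 1.238- and Stat2 at 1.097-fold.

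Among 14 pluripotency genes, 4 were higher and 4 lower, where 28.4% and 16.9% of all genes tested were. Pou5f1 (chr17:35506018-35510772), the central factor of pluripotency, was at 1.8901, 439 and 819 CPM in raised cells and at 196, 632 and 1186 CPM in the others, 0.617-fold (0.611–0.622). It was at 355 CPM in the upper and 514 CPM in the lower group. Epcam was 0.712-fold, Nanog 0.858-fold, Dnmt3b 0.922-fold and Utf1 1.03-fold. The higher ones included Sall1 (2.661-fold) and Cdh1 (1.6799-fold) of chromosome 8 and Otx2 (1.371-fold), a factor of the post-implantation epiblast. Of 12 naive factors listed, none had 20 CPM.

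The Nodal pathway, which the activin of the medium activates, had 2 of 12 genes higher and 4 lower. Over all genes tested 28.4% were higher and 16.9% lower. The groups of raised cells differed, with 1 higher and 6 lower in the upper group (median 0.803-fold) and 5 higher and 4 lower in the lower group (median 1.02-fold). Over all genes the shares were 32% and 22.4% in the upper and 24.6% and 23.8% in the lower group. Lefty1 (chr1:180935022-180938400), a secreted Nodal inhibitor that the pathway itself induces, was at 28.1, 2125 and 9743 CPM in raised cells and at 672, 4511 and 11127 CPM in the others, 0.644-fold. Its neighbour gene Lefty2 was at 0.150 CPM in the upper group, 92.4 CPM in the lower group and 55.9 CPM in the others, with 33.7% of its counts in 1 cell. Foxh1, the DNA-binding partner of Smad2, was 0.580-fold, and Smad4, which all branches of the pathway share, 1.776-fold.

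Of 10 genes of the FGF and ERK response, 5 were higher and 1 lower, where 28.4% and 16.9% of all genes tested were. Beside Dusp4 and Fgfr1 of chromosome 8 the higher ones were Etv4 of chromosome 11 (1.855-fold) and the pathway inhibitors Spred1 of chromosome 2 and Spry2 of chromosome 14. The lower one was Fos, at 0.0416-fold with 39.1% of its counts in 1 cell. Of the 4 genes on chromosomes not raised, 1 was higher and 1 lower, with a median of 0.903-fold. In the lower group Spry2 was at 31.2 against 33.0 CPM in the others and Spred1 at 17.0 against 19.1 CPM. Of 4 Wnt targets that could be compared, 2 were higher, Nkd1 of chromosome 8 at 3.52-fold and Znrf3 of chromosome 11 at 1.302-fold. Of 7 genes of the Id and BMP response, 2 were higher, Id2 at 1.653- and Smad1 of chromosome 8 at 1.261-fold, and 0 lower. The count of higher genes was near the share of 28.4% over all genes tested. In the lower group Id2 was at 34.3 against 43.2 CPM and Smad1 at 15.1 against 18.2 CPM, and without the 4 cells with few primed markers Id2 was at 0.955-fold over all raised cells. Of 4 early neural genes, Tubb3 and Cdh2 (1.886-fold) were higher and Ncam1 (0.730-fold) lower. The 3 streak genes compared were T, with 99.1% of its counts in 1 cell, Fgf8 at 0.756-fold and Chrd at 0.871-fold.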

How the data were processed

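Raw counts per gene were deposited by the authors for every cell, from uniquely mapped reads (STAR 2.7.3a, featureCounts 2.0.0, GRCm38.p6). The authors also deposited sctransform output for 326 cells, treated here as a score corrected for depth, which served as an alternative only. The counts were used as deposited. Gene positions and biotypes came from GENCODE M21, and 52 of 31617 genes had no record there. Cells with under 3000000 counts were left out, as in the study. The kept AF32 cells had 3022696 to 6283874 counts.

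Levels are summed counts per 1000000, and a fold is the ratio of such levels. The 7087 genes compared were protein-coding with a mean of at least 20 CPM over kept AF32 cells. Intervals are exact 95% intervals for counts (scipy 1.17.1) and cover counting error only, since no molecular identifiers were used. No test was made, since AF32 is 1 line. Calculations used Python 3.11.15, numpy 2.4.6 and pandas 2.3.3 and were tested on simulated data. Chromosomes 2, 8, 10, 11, 19 and Y were set apart, and all others are called not raised. Single cells exceeded 1.2 for some of these as well. Chromosome 3 did so in 4 of the 39 other AF32 cells and 0 of the 41 raised cells, X in 4 and 2, and chromosome 6 in 2 and 0.

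The cells, the 27 gene lists and the limits were chosen with earlier results of these data known. Genes are named by a rule: chromosome 8 genes of the role list, the 4 largest folds of each list, the 5 largest and smallest of chromosome 8 and the 10 largest in each direction elsewhere, with a count in at least 50% of the cells of the higher group. Cell type markers are named besides. Sesn2, Spry2, Spred1, Mdm2, Trp53inp1, Ei24, the genes called not raised and the groups above and up to 1.4 were chosen after their values were seen. Some genes that the rule names are not reported here.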

Additional observations from a re-analysis of the deposited data

Results flagged for a closer look

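AF32 cells below the depth of 3000000 counts took no part in the comparisons and show a signal above 1.2 as well. Of 16 such cells, 13 had at least 500000 counts, and 3 of them had a chromosome 8 ratio above 1.2, the highest at 1.495. Among cells of that depth in the other lines, none of 3 (5ar1) and none of 4 (5ar2) did so, while AFX6 had 1 of 29, at 1.474. The highest AF32 ratio thus lay just above that of AFX6, in cells of low depth, and neither cell had a chromosome 2 ratio above 1.2.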

How the results depend on the processing

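AF32 is 1 line, depth limits genes of low level, and chromosome copies were not measured. Medians of folds are given here on the log2 scale. The number of raised cells was 37 to 43 under other limits, caps, floors, gene means from the other lines and thinning, but 27 with gene means over AF32 cells alone, all of them among the 41, since those means then include the raised cells. For the rule genes of chromosome 8 the median of 0.78 was 0.83 without cells near the limit, 0.72 with cells chosen by every second gene, 0.88 with medians of CPM plus 1 and 0.54 where none of chromosomes 2, 10 and 19 was above 1.2, which leaves 4 against 29 cells. Under that last setting genes outside the rule were at 0.082 in place of 0.78, other autosomes at -0.11 in place of 0.01, and chromosome 11 at -0.23 in place of 0.09. There, 556 and 1118 genes of other chromosomes were at least 2-fold higher and lower in place of 197 and 93, and 7 G2/M genes were higher in place of 18. With medians of CPM plus 1, genes outside the rule were at 0 and other autosomes at -0.015, with 686 higher and 594 lower genes. With at least 4000000 counts there were 317 and 148. With a floor of 50 CPM there were 43 and 18, other autosomes were at -0.020 and 4 p53 targets were lower in place of 7, and genes outside the rule gave no value. Among cells with a raised chromosome 11, that chromosome was at -0.038 and 4 p53 targets were lower. Settings added after seeing the data were the groups above and up to 1.4, a comparison set below 1.1, gene means from the other lines and the 4 cells left out, and all settings for the counts of G2/M, glycolysis and p53 genes. The upper group gave 0.88 for the rule genes, with 341 higher and 222 lower genes. The lower group gave 0.50 for the rule genes, 0.29 outside the rule, -0.020 for other autosomes and 0.024 for chromosome 11, with 320 lower genes and 6 higher G2/M genes. The count of 12 lower glycolysis genes stayed within 1.5 times under all settings run. Among the named genes that were at least 25% higher or 20% lower, direction turned as follows for those reported here. In the lower group these were Bcl2l1 (-1.412), Ckb (-1.36), Id2 (-0.33), Smad1 (-0.27), Emp3 (-0.23), Cul4a (-0.016), Fgf5 (0.23) and Lefty2 (0.72), and in the upper group Cdh1 (-3.47). Without the 4 cells with few primed markers they were Bid (-0.38) and Id2 (-0.067), the latter also at -0.17 with at least 4000000 counts and at -0.045 without cells with few detected genes. With medians of CPM plus 1 they were Junb (3.31), Bbc3 (0.15), Atf3 (0.030), Chac1 (-0.018), Cdh1 (-0.093), Dhodh (-0.20) and Pfkp (-0.69). Among cells with a raised chromosome 11 they were Acta1 (1.02), Fgf5 (0.32) and Junb (0.30). Where none of chromosomes 2, 10 and 19 was raised, with 4 cells, they were Ncam1 (0.84), Acta1 (0.72), Lefty1 (0.61), Foxh1 (0.36), Cox6b2 (0.022), Ckb (-0.016), Dnaja2 (-0.068), Rab8a (-0.095), Dhodh (-0.24), Cul4a (-0.56), Znrf3 (-0.74), Ctcf (-0.81), Irs2 (-0.82), Calr (-1.117), Pfkp (-1.509), Bcl2l1 (-2.406), Insr (-3.59), Cdh1 (-5.52), Etv4 (-6.962) and Bid (-7.00). The cause was not tested. No paired analysis was possible because the cells of AF32 carry no pairing between the groups compared.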
